A study of Mus musculus with 11 samples.

Results

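The genes described here are *Fgf23* and 9 other genes of fibroblast growth factor (FGF) signaling in the embryonic mouse heart: the co-receptors *Kl* and *Klb*, the receptors *Fgfr1*, *Fgfr2*, *Fgfr3* and *Fgfr4*, and the ligands *Fgf9*, *Fgf10* and *Fgf16*. They were chosen by name, as ligands, receptors and co-receptors, and each was matched by its symbol to 1 of the 55487 gene identifiers in the count tables. All 10 passed the filter of at least 10 counts over the hearts and were among the 24177 genes tested. At E14.5, 5 hearts were *Pde2A*-/- and 6 were *Pde2A*+/+, all of untreated embryos from crosses between heterozygous mice of a B6;129P2 background. *Pde2A* encodes a phosphodiesterase that breaks down both cAMP and cGMP, and the *Pde2A*-/- embryos carry the tm1Dgen allele on both chromosomes in every cell. Embryos of both sexes were used, only live ones were kept, and no litter or batch is stated. Each heart was sequenced as a library of its own, so p-values below measure the spread between hearts.

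FGFs bind receptor tyrosine kinases at the cell surface together with heparan sulfate, and the activated receptor passes its signal through adaptors to the RAS and ERK cascade. FGF23 belongs to the endocrine FGFs: it is made mainly by osteocytes, circulates, and lowers phosphate reabsorption in the kidney through FGFR1 and the co-receptor Klotho, the product of *Kl*. In the embryonic heart FGF9 and FGF16 from epicardium and endocardium promote growth of the myocardium, and FGF10 acts in the second heart field and in epicardium-derived cells.

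*Fgf23* (ENSMUSG00000000182) lies on the plus strand of chromosome 6 from 127072902 to 127081408 in GRCm38. Its promoter is shown with those of *Kl* and of *Dusp6*, a target of FGF signaling described below, as the 250 bases before the start of each gene in RefSeq (GRCm38.p6), 5′ to 3′ on the plus strand, because in all 3 this start is also the start of the gene in GENCODE M21. Capitals mark matches to TGACG, the shorter part of the cAMP response element, and to ACGTG or GCGTG, the core of the hypoxia response element. The stretches are chr6:127072652-127072901 for *Fgf23*, chr5:150952357-150952606 for *Kl* and chr10:99262981-99263230 for *Dusp6*.
Fgf23: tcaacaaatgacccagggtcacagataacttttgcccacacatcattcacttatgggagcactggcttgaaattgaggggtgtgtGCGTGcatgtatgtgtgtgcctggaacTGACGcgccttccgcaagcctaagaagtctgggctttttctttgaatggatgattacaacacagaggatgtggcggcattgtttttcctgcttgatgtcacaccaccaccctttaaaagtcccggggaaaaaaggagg
Kl: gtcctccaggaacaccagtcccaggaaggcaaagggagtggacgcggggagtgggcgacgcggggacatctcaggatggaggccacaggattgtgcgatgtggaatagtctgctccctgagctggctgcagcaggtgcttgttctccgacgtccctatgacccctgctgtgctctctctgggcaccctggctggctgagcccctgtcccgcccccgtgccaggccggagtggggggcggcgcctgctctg
Dusp6: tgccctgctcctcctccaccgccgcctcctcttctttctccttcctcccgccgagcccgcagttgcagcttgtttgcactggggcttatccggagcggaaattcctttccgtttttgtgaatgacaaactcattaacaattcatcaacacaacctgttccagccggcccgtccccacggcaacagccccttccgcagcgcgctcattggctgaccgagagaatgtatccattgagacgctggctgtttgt

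The *Fgf23* promoter holds 1 TGACG, starting 138 bases before the start of the gene, and 1 GCGTG, starting 165 bases before it. The search covered both strands of RefSeq windows that reach from 250 bases before to 50 bases after a start. Over 32851 such windows, TGACG was found in 20.8% and ACGTG or GCGTG in 43.8%, and the full element TGACGTCA, which contains TGACG, in 1.79%. Of the 8 members with a window, none held TGACGTCA, 3 held TGACG (*Fgf23*, *Klb* and *Fgf9*) and 6 held ACGTG or GCGTG. The promoters of *Kl* and *Dusp6* held no match. These matches describe letters only.

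The sense counts of a heart summed to between 35865537 and 42835382. The targeted gene *Pde2a* had 0 to 2 counts in each library; another annotated gene overlaps it on the same strand and STAR gives reads on both to neither, so the genotypes could not be checked by it. *Pde2A*+/+ replicate 7 held thymus markers, with a summed level of 58.6 CPM (counts scaled to a common library size after TMM normalization) against at most 0.183 CPM in any other heart. *Pde2A*+/+ replicate 11 held the lung marker *Nkx2-1* at 5.22 CPM. The other 4 lung markers had too few counts to test, with at most 4 counts in any heart, so the lung label rests on *Nkx2-1* alone. Liver markers summed to between 33.8 and 106.9 CPM in *Pde2A*-/- replicate D and *Pde2A*+/+ replicates 11, H and E. *Fgfr2*, *Fgfr3* and *Fgf10*, in which replicate 7 or 11 stands out, are given with and without both. In whole hearts, fewer cells of a type and less RNA per cell cannot be told apart.

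At an adjusted p under 0.05 (edgeR quasi-likelihood test, Benjamini-Hochberg over all genes tested), 2 of the 10 members were higher in *Pde2A*-/- hearts, *Fgf23* and *Fgfr1*, and 0 were lower. Over all genes, 8.93% were higher and 5.67% lower. *Fgf23* also passed the 2-fold limit that the study used, as did 2.21% of all genes. Both genes had every *Pde2A*-/- heart above every *Pde2A*+/+ heart, which held for 5.38% of all genes. The median log2 fold change of the members was 0.06, against -0.02 over all genes. *Fgf23* was known to be higher in these hearts when the set was chosen, so its place in this count is not independent of the choice.

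**Figure D1:**
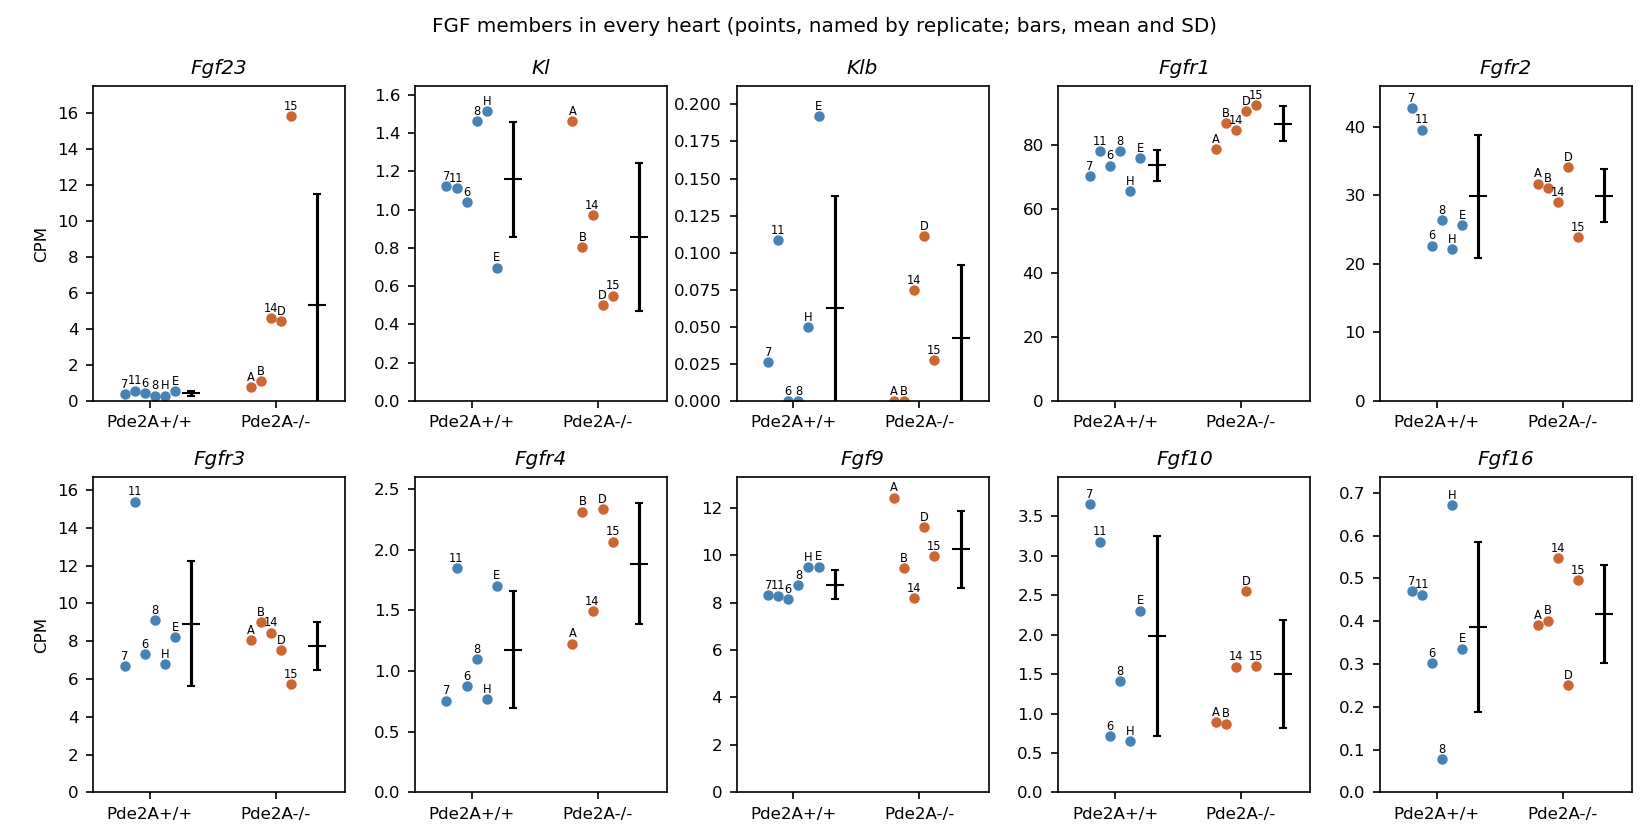
Level of the 10 members in CPM (vertical axes, each from 0 and each on its own scale) in 6 *Pde2A*+/+ hearts (blue) and 5 *Pde2A*-/- hearts (orange), 1 point per heart with its replicate name, and the mean with its SD as a black bar that is drawn only above 0. *Fgf23* and *Fgfr1* are the panels in which the genotypes do not overlap, and *Pde2A*+/+ replicates 7 and 11 stand above the other hearts in *Fgfr2* and *Fgf10*.

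*Fgf23* was low in every *Pde2A*+/+ heart and rose in *Pde2A*-/- hearts to very different extents. In *Pde2A*-/- hearts its level was 0.783 CPM in replicate A, 1.11 in B, 4.41 in D, 4.60 in 14 and 15.8 in 15. In *Pde2A*+/+ hearts the lowest level was 0.287, the median 0.402 and the highest 0.571 CPM. The *Pde2A*-/- hearts thus fell into A and B near the wild-type range, 14 and D close together above it, and 15 alone at the top. These levels rest on 30 to 574 counts per *Pde2A*-/- heart and 11 to 23 counts per *Pde2A*+/+ heart. The log2 fold change was 3.66 (SE 0.66, adjusted p = 0.00389, edgeR), a 12.7-fold rise with a 95% interval of 4.69 to 34.2.

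The knockout hearts spread widely. The highest *Pde2A*-/- heart had 20.2 times the level of the lowest, while among *Pde2A*+/+ hearts the corresponding ratio was 1.99. Replicate A stood 1.37 times above the highest *Pde2A*+/+ heart, replicate 11, and their exact Poisson intervals overlapped. They ran from 0.528 to 1.12 CPM in A and from 0.353 to 0.872 CPM in *Pde2A*+/+ replicate 11. The interval of *Pde2A*-/- replicate B, from 0.815 to 1.48 CPM, overlapped that of replicate 11 as well. These intervals cover counting error only. Without replicate 15 the log2 fold change fell to 2.70 and the adjusted p was 0.00515. Hearts are named by letters or by numbers in both genotypes, with no meaning given. Among hearts named by letters, 3 against 2, the log2 ratio of mean levels was 2.31, and among those named by numbers, 2 against 4, it was 4.62.

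Markers of the cells best known to make FGF23 differed in level. Of 7 markers of osteoblasts and osteocytes, *Bglap* had too few counts to test, and *Dmp1*, *Ibsp* and *Sp7* did not exceed 0.0826, 0.951 and 0.480 CPM in any heart. *Phex* was 0.301 to 5.57 CPM over all hearts, and the phosphatase gene *Alpl* was 4.74 to 6.86 CPM in *Pde2A*-/- and 3.15 to 5.71 CPM in *Pde2A*+/+ hearts (log2 fold change 0.38, SE 0.16, adjusted p = 0.117, edgeR). *Sost*, which encodes the bone formation inhibitor sclerostin, was 11.6 to 30.4 CPM in *Pde2A*-/- and 6.26 to 15.2 CPM in *Pde2A*+/+ hearts. It was the only one to pass the test, with a log2 fold change of 1.13 (SE 0.23, adjusted p = 0.00805, edgeR). *Sost* is also expressed outside bone. The summed level of the 7 markers was 17.5 to 35.7 CPM in *Pde2A*-/- and 10.3 to 22.9 CPM in *Pde2A*+/+ hearts. Most of the sum in *Pde2A*-/- hearts was *Sost*, at means of 21.3 CPM there and 9.73 CPM in *Pde2A*+/+ hearts. The markers did not rise as a group, since the 6 tested had a median log2 fold change of -0.41 and 2 of them were above 0. *Ibsp*, *Sp7*, *Phex* and *Dmp1* were below 0 and did not pass. Markers of other cell types were also compared, beside 8.93% of all genes called higher and 5.67% called lower. Macrophage markers summed to 163 to 214 CPM in *Pde2A*-/- against 87.1 to 140 CPM in *Pde2A*+/+ hearts, with 5 of 6 higher, and erythroid markers to 429 to 876 against 107 to 485 CPM, with 6 of 7 higher. Endothelial and endocardial markers were higher for 3 of 8 genes, and fibroblast markers for 3 of 7. Among cardiomyocyte markers 2 of 10 were lower, and among epicardial markers 1 of 6 was lower. The part of these cell types in the change of *Fgf23* or of the genes below was not tested.

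*Fgf9*, a ligand made by epicardium and endocardium, did not pass the test. Its level in *Pde2A*-/- hearts was 12.4 CPM in A, 9.47 in B, 11.2 in D, 8.19 in 14 and 9.95 in 15, against a lowest of 8.14, a median of 8.52 and a highest of 9.51 CPM in *Pde2A*+/+ hearts. The highest *Pde2A*-/- hearts, A and D, were here not those highest in *Fgf23*. The log2 fold change was 0.23 (SE 0.10, adjusted p = 0.150, edgeR, 95% interval 0.01 to 0.45).

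*Fgf10* overlapped widely between the genotypes. In *Pde2A*-/- hearts it was 0.887 CPM in A, 0.873 in B, 2.55 in D, 1.59 in 14 and 1.60 in 15, and in *Pde2A*+/+ hearts it ranged from 0.646 through a median of 1.86 to 3.65 CPM. The highest 2 of all hearts were *Pde2A*+/+ replicates 7, at 3.65, and 11, at 3.18, the libraries with thymus markers or with *Nkx2-1*. On the log2 scale the difference was -0.41 (SE 0.45, adjusted p = 0.597, edgeR) with these replicates and 0.23 (SE 0.41, adjusted p = 0.767) without them, and their part in the level was not tested beyond this.

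*Fgf16*, the third of the cardiac ligands, had between 3 and 27 counts per heart. In *Pde2A*-/- hearts it was 0.391 CPM in A, 0.401 in B, 0.250 in D, 0.547 in 14 and 0.496 in 15, within the *Pde2A*+/+ range of 0.0784 to 0.671 CPM with a median of 0.399. Its log2 fold change was 0.11 (SE 0.38, adjusted p = 0.884, edgeR), with a 95% interval of the fold from 0.612 to 1.90.

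Among the receptors, *Fgfr1* rose by a small amount in every knockout heart. FGFR1 is the receptor through which FGF23 acts with Klotho. Its level in *Pde2A*-/- hearts was 78.7 CPM in A, 86.8 in B, 90.6 in D, 84.6 in 14 and 92.3 in 15, and in *Pde2A*+/+ hearts the lowest was 65.6, the median 74.7 and the highest 78.1 CPM. Replicate A lay just above the highest *Pde2A*+/+ heart. This was a log2 fold change of 0.24 (SE 0.06, adjusted p = 0.0182, edgeR), or 17.8% higher with a fold interval of 1.08 to 1.28. The adjusted p was 0.0543 without *Pde2A*-/- replicate D. The fold was well under the 2-fold limit of the study.

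*Fgfr4*, the receptor through which FGF23 can act without Klotho, was a low gene with 29 to 98 counts per heart. Its level was 1.23 CPM in A, 2.31 in B, 2.33 in D, 1.49 in 14 and 2.07 in 15 of the *Pde2A*-/- hearts, and from 0.756 through a median of 0.987 to 1.85 CPM in *Pde2A*+/+ hearts. In 3 of 5 *Pde2A*-/- hearts it exceeded every *Pde2A*+/+ heart. It had a log2 fold change of 0.68 (SE 0.27, adjusted p = 0.110, edgeR), with a fold interval of 1.07 to 2.41 before adjustment over all genes. None of 6 skeletal muscle markers passed the test, and their sum was 486 to 832 CPM in *Pde2A*-/- and 462 to 816 CPM in *Pde2A*+/+ hearts. Most of it was *Ckm*, with means of 507 and 519 CPM in this order, so the sum mostly follows this gene. Of the 6 markers, 4 had log2 fold changes above 0. *Myh3* was 0.391 to 86.7 CPM in *Pde2A*-/- and 0.877 to 16.7 CPM in *Pde2A*+/+ hearts (2.50, SE 1.15, adjusted p = 0.162, edgeR). *Myh8* was 1.80 to 40.0 and 2.46 to 8.60 CPM in the same order (1.86, SE 0.71, adjusted p = 0.0949, edgeR). In both, 2 knockout hearts lay above every wild-type heart and 1 below. Among *Pde2A*-/- hearts the sum was lowest in A and highest in D, as was *Fgfr4*. Among *Pde2A*+/+ hearts it was 566.8 CPM in replicate 11, the highest in *Fgfr4*, and 804.2 CPM in H, among the lowest. In E, with *Fgfr4* at 1.70 CPM, the sum was 816.2 CPM. The part of skeletal muscle in the *Fgfr4* level was not tested.

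*Fgfr2*, a receptor of FGF10 in its epithelial form, had nearly equal means, 29.9 ± 3.84 CPM in *Pde2A*-/- and 29.8 ± 8.95 CPM in *Pde2A*+/+ hearts (SD). The *Pde2A*-/- hearts were at 31.7 in A, 31.0 in B, 34.1 in D, 29.0 in 14 and 23.9 in 15, and the *Pde2A*+/+ hearts ranged from 22.1 through a median of 26.0 to 42.7 CPM. *Pde2A*+/+ replicates 7 and 11, at 42.7 and 39.6, stood above all other hearts. Its log2 fold change was 0.01 (SE 0.17, adjusted p = 0.989, edgeR) with them and 0.30 (SE 0.10, adjusted p = 0.0795) without them, so the near equality rests on these 2 hearts. *Fgfr2* shares 3.04% of its exon bases with *Ctbp2*.

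*Fgfr3* was 8.06 CPM in A, 9.02 in B, 7.52 in D, 8.46 in 14 and 5.73 in 15 of the *Pde2A*-/- hearts, and from 6.70 through a median of 7.78 to 15.4 CPM in *Pde2A*+/+ hearts. The highest value was that of *Pde2A*+/+ replicate 11, and the next was 9.12. The difference was -0.20 on the log2 scale (SE 0.20, adjusted p = 0.563, edgeR) without any heart left out, 0.02 without replicate 11 and -0.02 without replicates 7 and 11. *Pde2A*-/- replicate 15, the heart highest in *Fgf23* and *Fgfr1*, was the lowest of all hearts in *Fgfr3* and the lowest knockout heart in *Fgfr2*.

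Per kilobase of exon, *Fgfr1* made up most of the receptor transcripts in both genotypes, 63.0 ± 5.49% in *Pde2A*+/+ and 66.0 ± 3.25% in *Pde2A*-/- hearts (SD). *Fgfr2* held 24.0 ± 5.13% and 21.8 ± 2.55%, *Fgfr3* 10.3 ± 2.48% and 8.17 ± 1.36%, and *Fgfr4* 2.74 ± 0.913% and 3.98 ± 0.908%, in the same order. The ranges of the genotypes overlapped for each receptor.

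**Figure D2:**
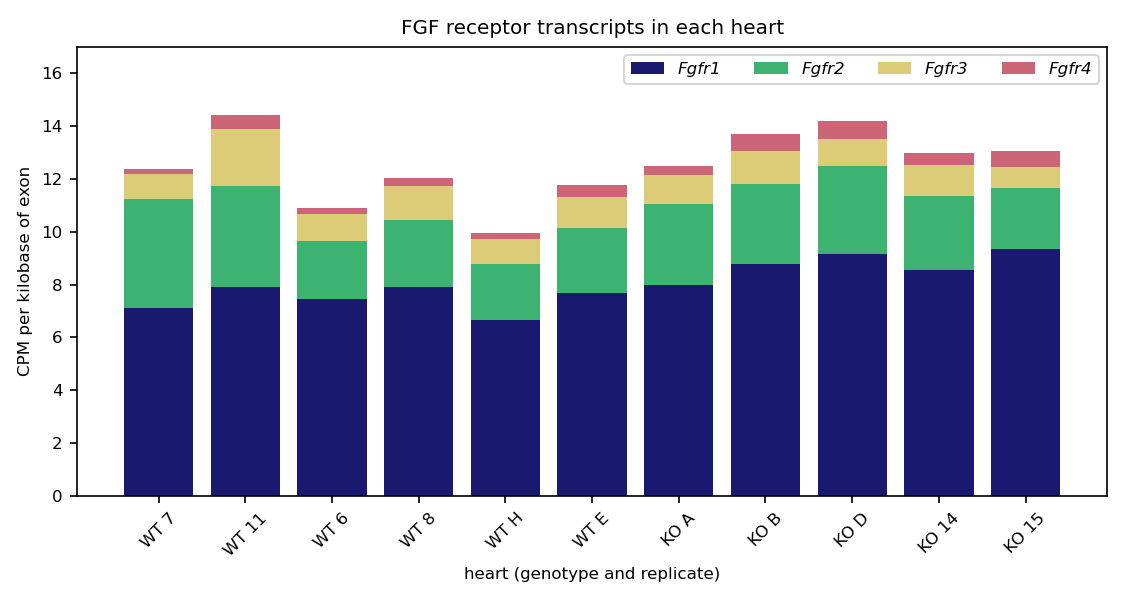
Stacked bars of *Fgfr1*, *Fgfr2*, *Fgfr3* and *Fgfr4* in CPM per kilobase of exon (vertical axis, from 0) for each of the 11 hearts, named by genotype (WT, *Pde2A*+/+; KO, *Pde2A*-/-) and replicate. *Fgfr1* is the tallest part of every bar, and the *Fgfr2* part is tallest in WT 7 and WT 11.

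Across all members, the order of levels in *Pde2A*+/+ hearts, in CPM per kilobase of exon, was *Fgfr1* (7.45 ± 0.496), *Fgfr2* (2.89 ± 0.866), *Fgf9* (1.88 ± 0.133), *Fgfr3* (1.25 ± 0.460), *Fgf10* (0.431 ± 0.276), *Fgfr4* (0.332 ± 0.136), *Fgf16* (0.235 ± 0.121), *Fgf23* (0.231 ± 0.0679), *Kl* (0.124 ± 0.0322) and *Klb* (0.0138 ± 0.0165, SD). *Fgf9* and *Fgfr3* overlapped over hearts, as did each neighbouring pair from *Fgf10* to *Kl*, while *Fgfr1*, *Fgfr2*, *Fgfr3* and *Kl* stood clear of the next gene below. In *Pde2A*-/- hearts *Fgf23* averaged 2.95 ± 3.37 CPM per kilobase, between 0.432 and 8.72.

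The co-receptors were low and did not pass the test. *Kl*, needed for high-affinity binding of FGF23, was 1.46 CPM in A, 0.803 in B, 0.4996 in D, 0.970 in 14 and 0.551 in 15 of the *Pde2A*-/- hearts, against 0.696, 1.12 and 1.52 CPM as the lowest, median and highest of the *Pde2A*+/+ hearts. *Pde2A*-/- replicates D and 15 lay below every *Pde2A*+/+ heart, whereas A lay near the top of their range. *Kl* had a log2 fold change of -0.43 (SE 0.28, adjusted p = 0.334, edgeR, 95% interval -1.04 to 0.18). *Klb*, the co-receptor of FGF21 and of FGF15, had 0 to 8 counts per heart, 0 in *Pde2A*-/- replicates A and B and in *Pde2A*+/+ replicates 6 and 8, and a difference was not detectable at this depth (log2 fold change -0.58, SE 0.96, adjusted p = 0.739).

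Other genes of the pathway were read from 6 lists of 84 genes in all, of which 76 were tested, 20 were higher and 3 lower in *Pde2A*-/- hearts, against 8.93% higher and 5.67% lower of all genes. These lists were written with earlier results of the same hearts known. None of the 10 tested of 14 other secreted FGF ligands passed, with a median log2 fold change of -0.23. *Fgf4*, *Fgf15*, *Fgf21* and *Fgf22* had too few counts to test. *Fgf1*, the most abundant of the list in CPM, had a log2 fold change of -0.02 (SE 0.09, adjusted p = 0.898, edgeR).

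Of the 4 intracellular FGF homologous factors, which are not secreted and bind sodium channels, *Fgf11* alone passed. Its level in *Pde2A*-/- hearts was 13.0 CPM in A, 18.6 in B, 25.0 in D, 26.8 in 14 and 39.6 in 15, against 11.2, 12.7 and 14.2 CPM as the lowest, median and highest of the *Pde2A*+/+ hearts. The order of the knockout hearts was that of *Fgf23*, with A inside the wild-type range. Its log2 fold change was 0.95 (SE 0.21, adjusted p = 0.0119, edgeR).

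Of 15 genes of FGF23 processing and phosphate balance, 11 were tested, 2 were higher and 1 was lower, against 8.93% and 5.67% of all genes. *Slc20a1*, a sodium-phosphate cotransporter, rose in every knockout heart, from 58.4 CPM in A to 67.2 in 14, against 41.0 to 47.7 CPM in *Pde2A*+/+ hearts (log2 fold change 0.51, SE 0.05, adjusted p = 5.77e-05, edgeR). *Vdr*, the vitamin D receptor, had a log2 fold change of 0.70 (SE 0.20, adjusted p = 0.0326), at 3.28 to 6.02 CPM in *Pde2A*-/- and 2.01 to 3.45 CPM in *Pde2A*+/+ hearts, and the call was lost without *Pde2A*-/- replicate 14 or D or *Pde2A*+/+ replicate 7, 6 or H. *Fam20c*, whose kinase marks FGF23 for cleavage, had a log2 fold change of -0.47 (SE 0.11, adjusted p = 0.0169), at 13.0 to 21.5 CPM in *Pde2A*-/- and 20.1 to 26.5 CPM in *Pde2A*+/+ hearts. The kidney phosphate transporters *Slc34a1* and *Slc34a3*, the vitamin D hydroxylase *Cyp24a1* and the matrix gene *Mepe* had 0 counts in all hearts.

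Of 17 receptor adaptors and signal transducers, 5 were higher and 1 lower, against 8.93% and 5.67% of all genes. *Shc1*, an adaptor of receptor tyrosine kinases, rose from 94.8 to 104 CPM in *Pde2A*+/+ to between 109 and 142 CPM in *Pde2A*-/- hearts (log2 fold change 0.33, SE 0.06, adjusted p = 0.00439, edgeR). *Map2k1*, the kinase above ERK, had a log2 fold change of 0.35 (SE 0.10, adjusted p = 0.0291), and *Frs3*, a docking protein of FGF receptors, 0.36 (SE 0.11, adjusted p = 0.0447). *Map2k1* was not called without *Pde2A*-/- replicate 14, D or 15 or *Pde2A*+/+ replicate 11 or E, and of the 11 hearts left out singly, *Frs3* stayed past the threshold only without *Pde2A*-/- replicate A or B.

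Of 18 heparan sulfate cofactors, 2 were higher and 1 lower, shares close to the 8.93% and 5.67% of all genes. *Sdc4*, a cell surface heparan sulfate proteoglycan that binds FGFs, was 52.8 CPM in A, 70.2 in B, 99.3 in D, 76.2 in 14 and 101.6 in 15 of the *Pde2A*-/- hearts, against 31.6, 36.6 and 44.0 CPM as the lowest, median and highest of the *Pde2A*+/+ hearts. The genotypes did not overlap, and the log2 fold change was 1.09 (SE 0.15, adjusted p = 0.000456, edgeR). The glypican *Gpc4* had a log2 fold change of 0.30 (SE 0.09, adjusted p = 0.0389), which, of the 11 hearts left out singly, stayed past the threshold only without *Pde2A*-/- replicate A or B or *Pde2A*+/+ replicate 8. The glypican *Gpc1* was lower, at -0.29 (SE 0.06, adjusted p = 0.00786), with every *Pde2A*-/- heart below every *Pde2A*+/+ heart.

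The list with most calls was that of FGF target and feedback genes, with a median log2 fold change of 0.37. In it, 10 of 16 were higher and 0 lower, against 8.93% and 5.67% of all genes. These genes are induced by ERK signaling and most of their products restrain it, and other receptor tyrosine kinases induce them as well. In 7 of the 10 the genotypes did not overlap, and every knockout heart was above every wild-type heart in 5.38% of all genes. The 10 had already passed the test, so this separation is not independent of it. Their folds ran from 1.22 to 2.16, so that 1 gene, *Dusp4*, passed the 2-fold limit.

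Among the dual-specificity phosphatases that act on ERK, *Dusp4* was 17.7 CPM in A, 24.2 in B, 33.7 in D, 28.3 in 14 and 33.0 in 15 of the *Pde2A*-/- hearts, and 11.6, 12.7 and 13.9 CPM as the lowest, median and highest of the *Pde2A*+/+ hearts. Every knockout heart was above every wild-type heart (log2 fold change 1.11, SE 0.14, adjusted p = 0.000206, edgeR). *Dusp6*, the phosphatase most widely used as a readout of FGF signaling, was 62.2 CPM in A, 71.3 in B, 74.2 in D, 71.4 in 14 and 75.1 in 15, against 48.2, 52.5 and 62.3 CPM as the lowest, median and highest in *Pde2A*+/+ hearts. Replicate A was just inside the wild-type range, and the log2 fold change was 0.37 (SE 0.08, adjusted p = 0.00786). *Dusp5* had a log2 fold change of 0.41 (SE 0.13, adjusted p = 0.0471).

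The products of the Sprouty and Spred genes block the RAS cascade below the receptor. Of these 7 genes, 5 were called higher, against 8.93% of all genes. *Spry4* was 24.0 to 34.0 CPM in *Pde2A*-/- and 20.2 to 22.7 CPM in *Pde2A*+/+ hearts (log2 fold change 0.48, SE 0.08, adjusted p = 0.00144, edgeR). *Spry2* was 71.1 to 92.4 CPM against 55.5 to 66.8 CPM (0.39, SE 0.08, adjusted p = 0.00613). *Spred3* was 5.87 to 9.95 CPM against 4.17 to 5.28 CPM (0.74, SE 0.13, adjusted p = 0.00253). The genotypes did not overlap in these 3 genes, nor in *Spred1* and *Spred2*, which had log2 fold changes of 0.36 and 0.29. *Spry1* did not pass (0.21, SE 0.10, adjusted p = 0.154), with 3 of 5 knockout hearts above every wild-type heart and A below every one of them.

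Of the ETS factors *Etv1*, *Etv4* and *Etv5*, which carry out transcription downstream of FGF receptors, *Etv5* was 29.5 CPM in A, 33.4 in B, 39.3 in D, 37.5 in 14 and 38.4 in 15 of the *Pde2A*-/- hearts, above the *Pde2A*+/+ hearts at 18.2, 23.5 and 28.1 CPM as the lowest, median and highest (log2 fold change 0.60, SE 0.10, adjusted p = 0.00257, edgeR). *Etv1* had a log2 fold change of 0.47 (SE 0.11, adjusted p = 0.0134). *Etv4* overlapped between the genotypes, with means of 12.2 ± 2.17 CPM in *Pde2A*-/- and 10.9 ± 2.02 CPM in *Pde2A*+/+ hearts (SD; 0.17, SE 0.14, adjusted p = 0.447).

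The knockout hearts took a similar order across the 10 genes that passed. The highest *Pde2A*-/- heart was replicate 15 in 8 genes and D in 2, and the lowest was A in 8 and B in 2. *Fgf23* had the same highest and lowest heart, 15 and A. This is a description over 5 hearts. The share of all genes with the same highest and lowest heart is not given here, so the order cannot be read as particular to these genes.

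**Figure D3:**
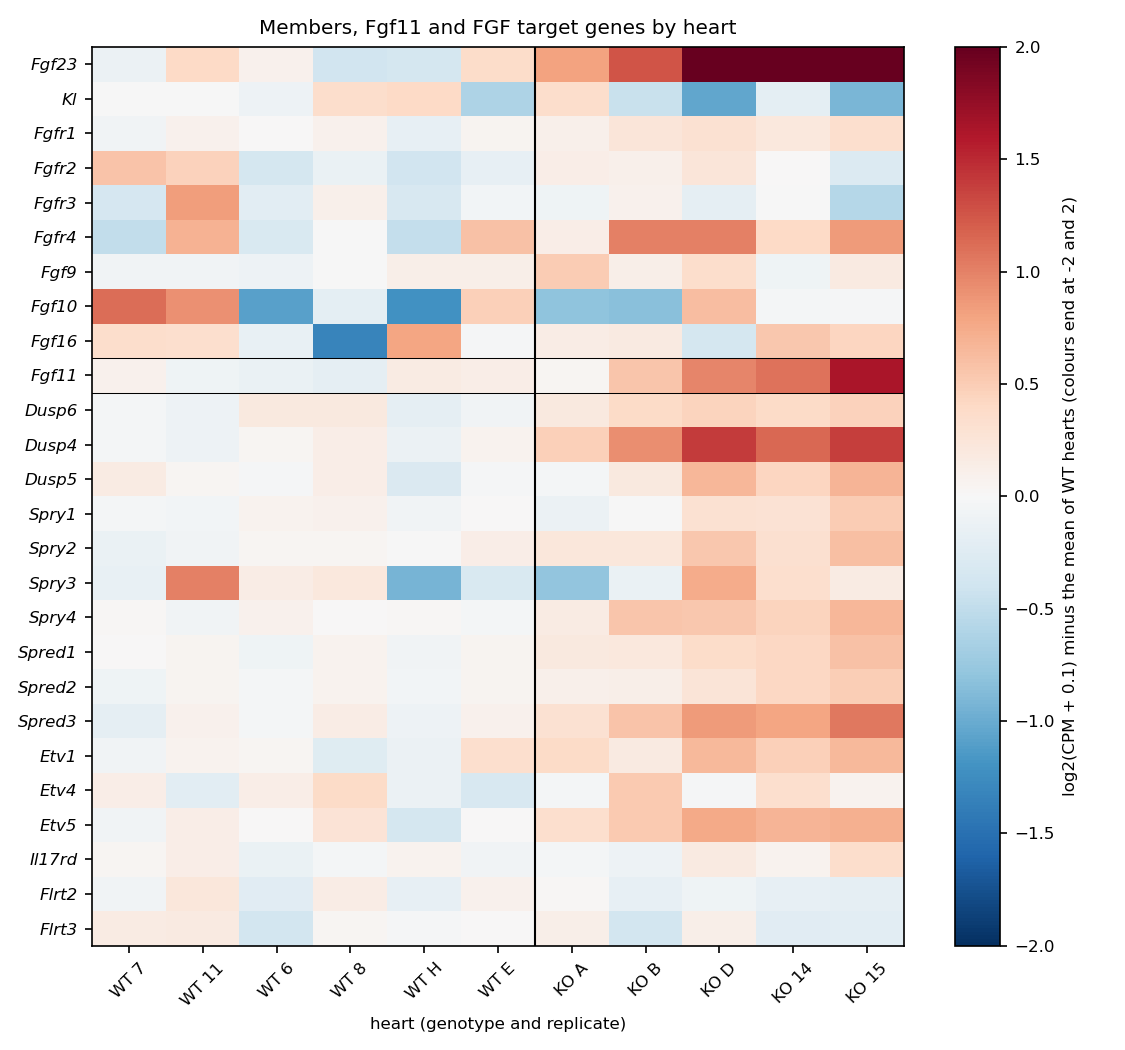
Heatmap of log2(CPM + 0.1) minus the mean of the 6 *Pde2A*+/+ hearts for 9 members (*Klb*, with 0 to 8 counts, is left out), *Fgf11* and the 16 FGF target genes (rows) in 11 hearts (columns, WT left of the black line, KO right of it), red for above and blue for below that mean, with colours that end at -2 and 2. *Fgf23*, *Fgf11* and *Dusp4* deepen from KO A and B to KO D, 14 and 15, while *Fgfr2* and *Fgf10* are reddest in WT 7 and WT 11.

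**Figure D4:**
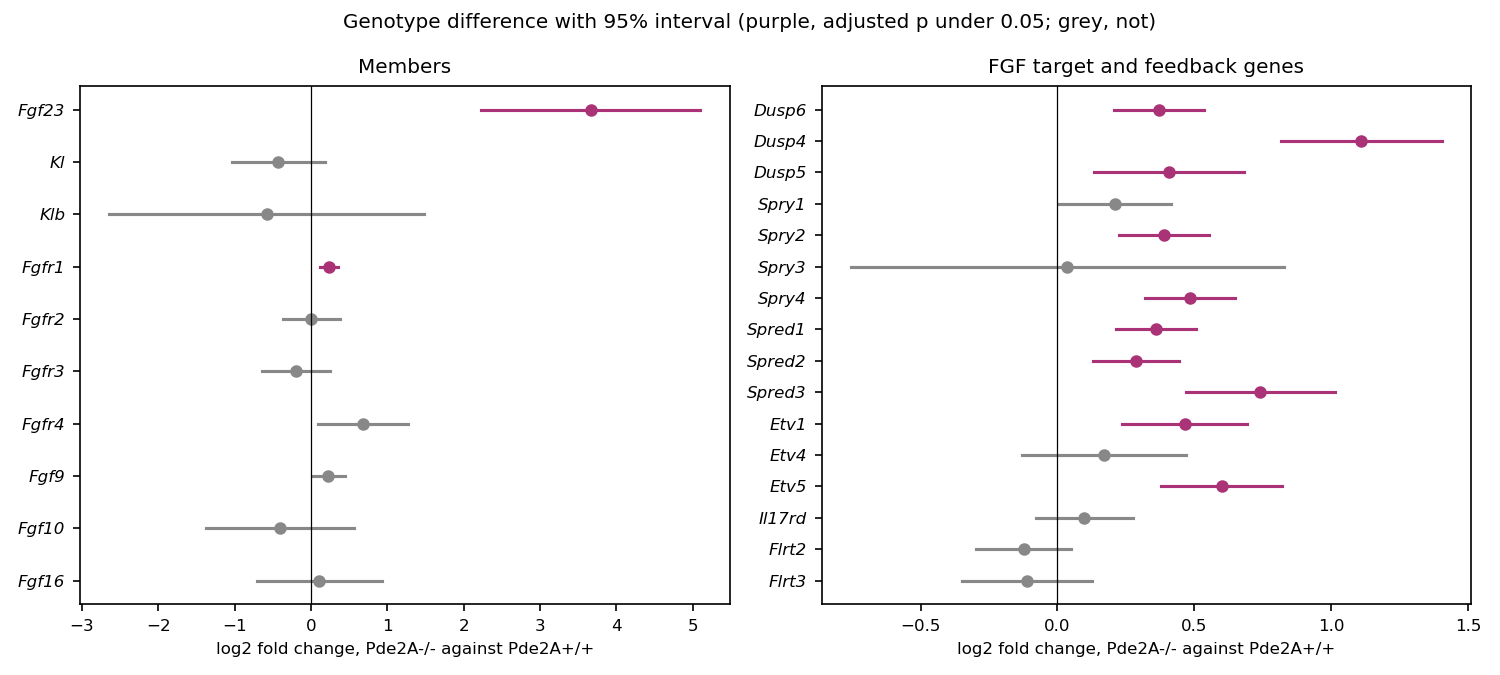
Log2 fold change of *Pde2A*-/- against *Pde2A*+/+ hearts (horizontal axes, on different scales) with the 95% interval for the 10 members and the 16 FGF target genes, purple where the adjusted p was under 0.05 and grey where it was not. *Fgf23* lies apart from the other members at 3.66, the intervals of the 10 purple target genes lie above 0, and *Dusp4* has the highest value among the targets at 1.11.

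The levels most like that of *Fgf23* over the 11 hearts were found by Pearson's r of log2 CPM over the 14023 genes that averaged 1 CPM or more. Among the nearest were *Retreg2* (r = 0.986), *Abca3* (0.985), *Setd5* (0.985) and *Gabarap* (0.984), whose product acts in autophagy. Such values were common, since 912 genes, 6.50% of those compared, reached r = 0.9, and the hearts share the split by genotype and the order within it. For deviations from the genotype means the nearest included *Cers1* (0.979), a ceramide synthase, *Trip10* (0.978), *Rita1* (0.976) and *Plcd3* (0.972), and 317 genes, 2.26%, reached 0.9. Among the FGF genes *Fgf11* had r = 0.963 and 0.914 on these measures, *Fgfr1* 0.848 and 0.576, and *Kl* -0.739 and -0.681.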

How the data were processed

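Hearts of *Pde2A*-/- (n = 5) and *Pde2A*+/+ (n = 6) embryos were sequenced as stranded, poly(A) single-end libraries. The authors mapped reads to GRCm38 with STAR and deposited its counts per gene, which are whole numbers without normalization, for both strands, for the opposite strand and for the sense strand. Reads on more than 1 gene are in none of them. Versions and annotation are not given in the sources used here. Sense counts were used. Lines for reads on no gene (19.6% to 22.4% of reads) were left out.

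Gene names and positions came from GENCODE M21, which held 55227 of 55487 identifiers. The 24177 genes whose counts over the 11 hearts reached 10 were tested with edgeR 4.0.16 in R 4.3.3 (TMM, quasi-likelihood test, Benjamini-Hochberg adjustment), with SE as the log2 fold change over the root of F. CPM per kilobase used the merged exon length. The members and lists were chosen with earlier results of these data known. The genes named are the members, the 3 largest called changes of each list (with none, its most abundant gene), *Dusp6*, *Spry1*, *Spry2*, *Spry4*, *Etv4*, *Etv5* and the 5 genes most like *Fgf23* on each of 2 measures. Any further gene was singled out once its values had been seen. Values of 2 genes that this rule or a count would name are left out, though totals include both.

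On simulated counts of 23653 genes, edgeR found 194 of 200 genes given a log2 change of 2, with 9 wrong calls, and made 0 calls without change. The alternatives were DESeq2 1.42.0, its size factors, filterByExpr, no filter, reads of both strands, the naming style of replicates as a covariate, a 2-fold limit, each heart left out in turn and, added after the data were seen, *Pde2A*+/+ replicates 7 and 11 left out together. Figures used Python 3.11.15 and matplotlib 3.10.9.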

Additional observations from a re-analysis of the deposited data

Results flagged for a closer look

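Among the genes named, 58 groups of hearts were examined for a heart far from the rest of its group, and 2 had one; chance gives about 1 in 20. *Fgf23* was 15.8 CPM in *Pde2A*-/- replicate 15, and the next knockout heart was at 4.60 CPM. *Fgfr3* was 15.4 CPM in *Pde2A*+/+ replicate 11, and the next wild-type heart was at 9.12 CPM. Replicate 11 also held the lung marker *Nkx2-1*, whose part in its *Fgfr3* level was not tested.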

How the results depend on the processing

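*Fgf23* passed the adjusted p in all 18 alternatives, with log2 fold changes of 2.70 to 3.94 and adjusted p of 4.22e-06 to 0.0219. The 2 members called became 1 with the 2-fold limit and 1 to 2 with each heart left out, the lower without *Pde2A*-/- replicate D, where *Fgfr1* had 0.22 (adjusted p = 0.0543). The pathway genes called, 23, ranged from 16 to 31, and the FGF target genes called higher, 10, from 8 to 11. Of the genes named, those whose direction reversed had not passed the test. With each heart left out, log2 fold changes ranged for *Klb* from -1.23 to 0.17, for *Fgfr2* from -0.0655 to 0.135, for *Fgfr3* from -0.27 to 0.0246, for *Fgf16* from -0.10 to 0.34 and for *Fgf1* from -0.0702 to 0.0455, and *Fgf10* was 0.23 without *Pde2A*+/+ replicates 7 and 11. *Spry1* passed without *Pde2A*-/- replicate A (0.29, adjusted p = 0.0275). *Klb* had no value under filterByExpr and no adjusted p from DESeq2. The causes were not tested. No paired analysis was possible because no litter or other pairing of the hearts is stated. Depth limits *Klb*, *Fgf16* and, in wild-type hearts, *Fgf23*, whose levels rest on few counts.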

Other observations

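The genes on either side of *Fgf23* on chromosome 6, chosen after the data were seen, did not pass the adjusted p (edgeR). Upstream, *Fgf6*, another FGF ligand, had a log2 fold change of -0.23 (SE 0.33, adjusted p = 0.705) at a mean of 0.458 CPM, and downstream *Tigar*, a regulator of glycolysis, had -0.23 (SE 0.10, adjusted p = 0.150) and the cyclin gene *Ccnd2* -0.09 (SE 0.08, adjusted p = 0.491).

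A further pair of FGF genes, singled out after their values were seen, were high in *Pde2A*+/+ replicate 7, the library with thymus markers. *Fgf3* was 0.808 CPM there, with 31 counts, against at most 0.174 CPM in any other heart, and *Fgf14* was 11.1 CPM against at most 2.29 CPM.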
